A study of Danio rerio with 12 samples.

Results

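A group of 66 genes was abundant in the uninjured zebrafish caudal fin and far lower in the regenerate. Its members were chosen from the deposited mRNA table of 16951 genes by their own values: a mean level of at least 5 at 0 days post-amputation (dpa), and a mean at 4 dpa lower by at least 2.5, both on the deposited log2 scale. Names of collagens, claudins and potassium channels were to be left out, and 0 genes were removed in that way. A level of at least 5 was reached by 4385 genes, so the members were 66 of 4385, and a further 31 genes fell as far but began at a lower level. Since the 4 dpa against 0 dpa difference chose the members, it is described for them and not tested.

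All libraries came from caudal fin of adult Ekkwill zebrafish, a laboratory line, with no transgene or drug named in any group. The 0 dpa group was fin tissue taken at amputation, and the 4 dpa group was the regenerate, a stage at which the blastema, a mass of dividing cells at the stump, has formed. Each group had 3 strand-specific polyA+ mRNA libraries of 17928712 to 25223147 recovered reads, each made from several pooled fins, so the spread between libraries is that between pools of fins. In whole tissue, fewer cells of a type and less RNA per cell cannot be told apart.

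The fin surface is a layered epidermis that holds mucous cells, ion-transporting cells and resident immune cells, over a dermis with bone rays, vessels, nerves and pigment cells. After amputation the epidermis closes the wound and thickens, and the cells under it divide and lay down new matrix. Some members belong to routes that animals use for sterols. Acetyl-CoA is built into squalene, squalene is closed into rings and trimmed to cholesterol, and cholesterol can then be oxidized, sulfated or exported. Sulfation needs sulfate carried into the cell and its activation to the donor PAPS.

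Together the members took 3.21% ± 0.0925 (SD, n = 3) of all reads at 0 dpa and 0.344% ± 0.0558 (SD, n = 3) at 4 dpa. By library this was 3.104, 3.24 and 3.28% in the uninjured fin, against 0.293, 0.404 and 0.335% in the regenerate. The lipocalin ptgdsb.1 alone took 0.570% ± 0.0511 (SD, n = 3) of the reads of the uninjured fin and 0.0340% ± 0.00437 (SD, n = 3) of those of the regenerate. Sulfotransferase sult2st3 followed with 0.314% and 0.0677%, and the unnamed gene si:dkey-183i3.5 with 0.304% and 0.0191%.

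The fall, the difference of the mean deposited levels, ran from −2.5 to −7.08 with a median of −3.02. It was at least 4 for 11 members and at least 3 for 36. In CPM, counts scaled by the authors to an adjusted library size, the mean at 4 dpa was 0.603 to 24.2% of that at 0 dpa, with a median of 10.7%. Less than 10% was left for 28 members and less than 5% for 9. The lowest read count of any member was 371 at 0 dpa and 5 at 4 dpa, so each member was sequenced well above 0 in the uninjured fin, and counting error is large only for the members that nearly vanished. Of the 66 members, 65 had every 4 dpa library under every 0 dpa library. Over all 16951 genes, 34.9% did not overlap in that direction, but the rule used this contrast, so nothing is read from the members' count. By limma with a Benjamini-Hochberg adjusted p under 0.05, the test used below for other genes, 31.1% of all genes were called lower (43.3% of the 4385 genes at the minimum level).

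**Figure D1:**
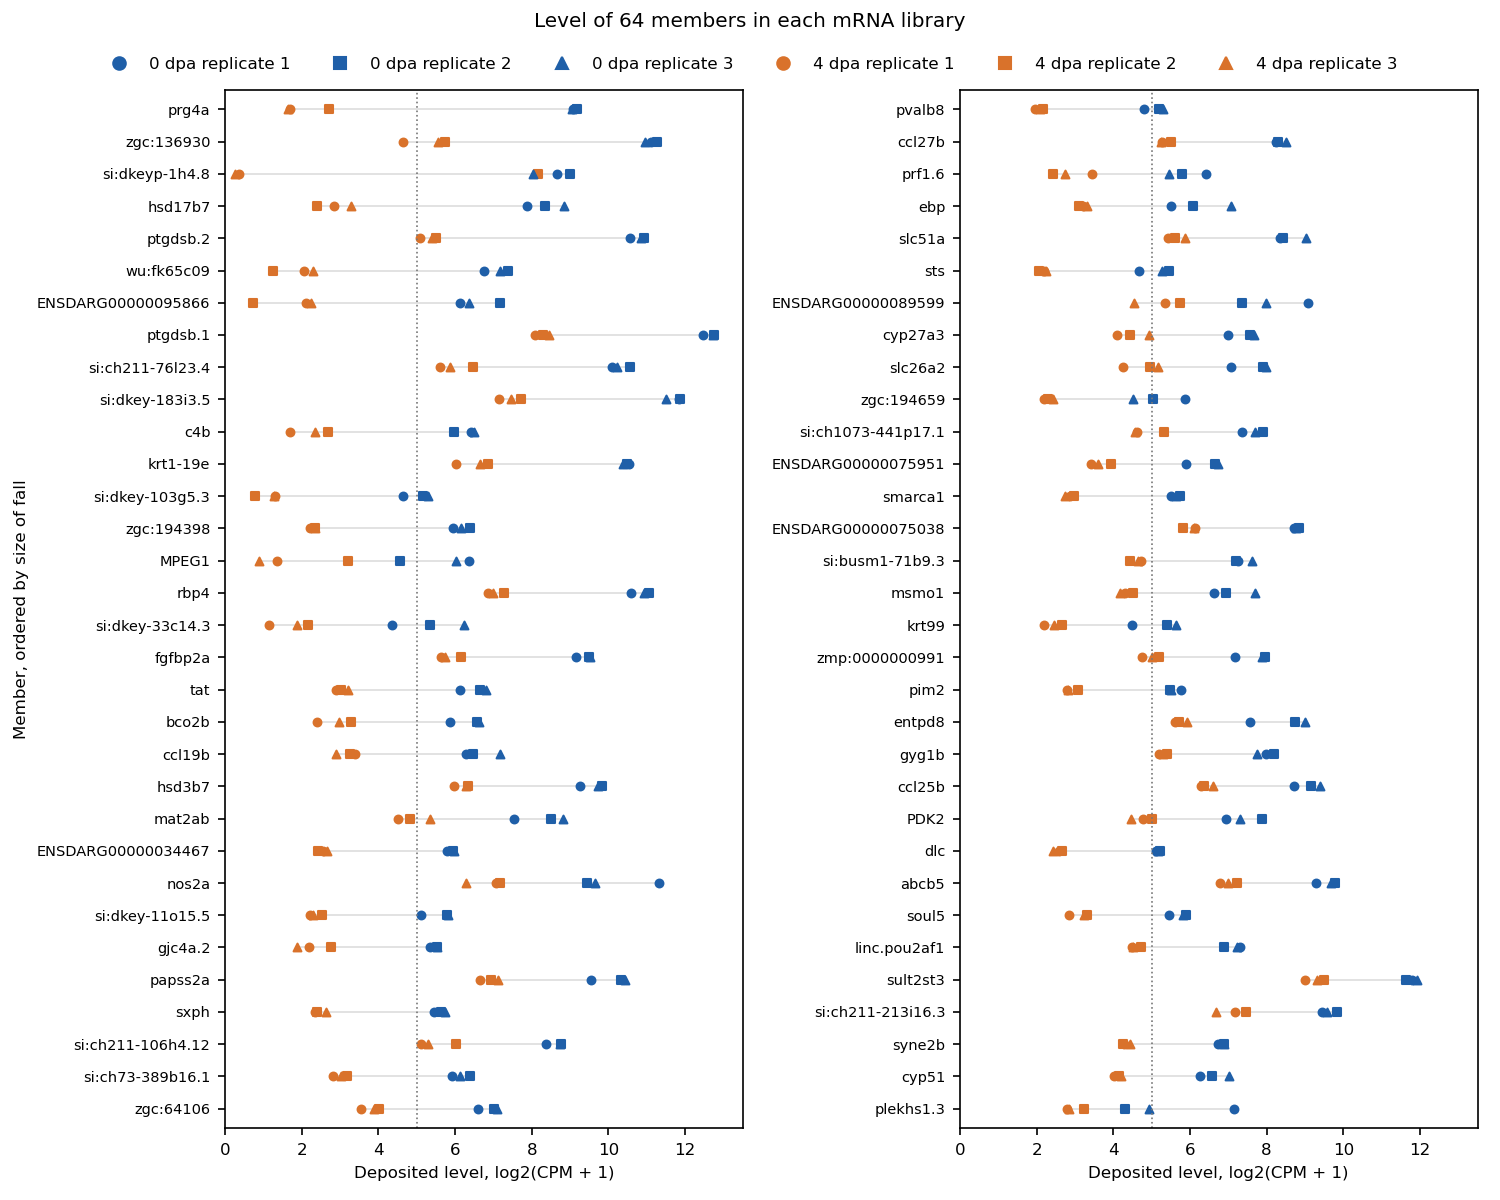
Deposited level, log2(CPM + 1), of 64 of the members (rows, in order of the size of the fall) in the 3 libraries at 0 dpa (blue) and the 3 at 4 dpa (orange), with replicates shown by marker shape and the minimum level of 5 dotted. The colours are apart in 63 rows and overlap only for si:dkeyp-1h4.8, where 4 dpa replicate 2 sits among the 0 dpa libraries.

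Membership at the edges rested on small differences. The 3 members just inside the minimum fall were plekhs1.3 (−2.503), cyp51 (−2.505) and syne2b (−2.509), and the 3 genes just outside it were si:dkey-11o15.4 (−2.463), slc25a55b (−2.459) and noxo1a (−2.458). At the minimum level, si:dkey-103g5.3, pvalb8 and sts were just inside with 5.03, 5.09 and 5.13 at 0 dpa. Just outside were CYP7A1 with 4.98, zgc:113337 with 4.92 and ppp1r3cb with 4.84, which fell by 2.68, 4.06 and 2.81. The group therefore has no natural border on either measure.

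Libraries of one day did not vary alike for these genes. At 0 dpa, replicate 1 was the lowest of the 3 for 48 of the 66 members (72.7%), against 46.7% of the 4319 other genes at the minimum level. At 4 dpa, replicate 2 was the highest for 41 members (62.1%), against 41.0% of the others. The median SD between the 0 dpa libraries was 0.298 for members and 0.117 for the other genes on the log2 scale, and at 4 dpa 0.238 and 0.110. The rule used these same 0 dpa values, so the larger 0 dpa SD is not read as a trait of the members. By the rule the members fell to lower levels at 4 dpa, so the 4 dpa SDs do not compare like levels. Leaving out each library in turn kept 48 of the 66 in the group every time.

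The members were then ordered by what their products are known to do, an assignment made with their values known. Of the 66, 4 make cholesterol, 5 convert, sulfate or export sterols, 2 supply sulfate, 4 are lipocalins or a carotenoid cleavage enzyme, 4 handle amino acids or sugars and 7 act in immunity. A further 2 belong to matrix and growth factor binding, 3 to keratins and the nuclear envelope, 3 to membrane proteins and 7 to other roles, while 23 had only a clone-based name or none, and 2 are not described here. In every one of these groups the summed CPM of each 4 dpa library was 4.14 to 17.6% of the 0 dpa mean, which follows from the rule.

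**Figure D2:**
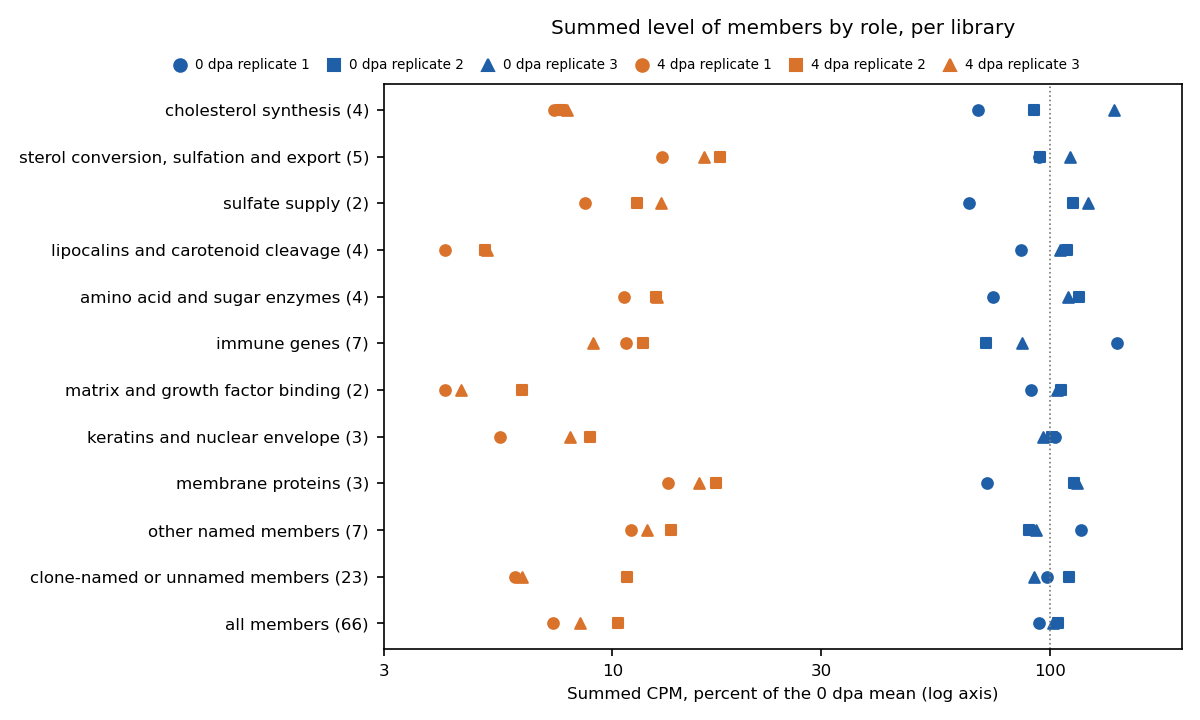
Summed CPM of the members of each role as a percent of the mean of the 3 libraries at 0 dpa (log axis), for each library at 0 dpa (blue) and 4 dpa (orange), with the number of members in brackets. All 4 dpa points lie between 4.14 and 17.6%, and among the 0 dpa points replicate 1 runs from 65.1% for sulfate supply to 142% for immune genes.

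Cholesterol synthesis held cyp51, msmo1, hsd17b7 and ebp, which act on the closed ring after squalene. The ketosteroid reductase hsd17b7 (ENSDARG00000088140) had 232, 323 and 456 CPM at 0 dpa and 6.20, 4.24 and 8.78 CPM at 4 dpa. The sterol isomerase ebp (ENSDARG00000046098) had 44.7, 66.8 and 133 CPM, then 8.27, 7.59 and 8.89 CPM. The spread between libraries narrowed for ebp, with an SD of 0.785 at 0 dpa and 0.102 at 4 dpa on the log2 scale, and stayed similar for hsd17b7, with 0.486 and 0.45. In neither gene did a 4 dpa library come near the lowest 0 dpa library, a gap that largely follows from the rule.

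The methylsterol oxidase msmo1 (ENSDARG00000055876) had 97.3, 121 and 205 CPM at 0 dpa and 18.9, 21.8 and 17.1 CPM at 4 dpa. The lanosterol demethylase cyp51 (ENSDARG00000042641) had 76.3, 94.0 and 130 CPM, then 15.1, 16.8 and 17.2 CPM. All 4 were lowest in replicate 1 at 0 dpa and highest in replicate 3. The falls were −5.50 for hsd17b7 and −2.5 to −3.01 for the others. Both cyp51 and msmo1 dropped below the minimum fall when 0 dpa replicate 3 was left out, and also with levels scaled to total reads. In addition, cyp51 dropped out without 4 dpa replicate 1, with 4 in place of 1 added to CPM, and with libraries centred on a trimmed mean log ratio.

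Other enzymes of the route were not chosen by the rule and were tested. Of 6 that act between squalene and cholesterol, 5 fell and 1 rose, with a median log2 fold-change of −1.67, beside −0.00 over all 16951 genes. The squalene epoxidase sqlea (ENSDARG00000079946) had 17.1, 23.1 and 37.8 CPM at 0 dpa and 1.44, 2.58 and 1.99 CPM at 4 dpa, a log2 change of −3.09 (SE 0.27), and lanosterol synthase lss fell by 2.32 (SE 0.19) from 14.2, 18.6 and 26.1 CPM to 2.84, 3.1 and 2.95 CPM. The desaturase sc5d fell by 1.8 (SE 0.27), the reductase tm7sf2 by 1.54 (SE 0.19) and SQLE, another squalene epoxidase, by 1.41 (SE 0.15). These 5 had limma adjusted p values between 2.69e-05 and 0.00064. The exception was LBR, a nuclear envelope protein that carries out the same reduction as tm7sf2, which rose by 0.85 (SE 0.13) from 15.8, 14.9 and 16.9 CPM to 29.4, 24.8 and 33.5 CPM (limma adjusted p = 0.000549).

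Upstream of squalene the picture was mixed. Of 5 other genes, FDPS, which makes farnesyl diphosphate, fell by 1.17 (SE 0.22, limma adjusted p = 0.00216) and the mevalonate kinase MVK by 0.65 (SE 0.23, limma adjusted p = 0.0363), a call that was lost with total-read scaling (0.129) and in 5 of the 6 fits that left out a library (0.0716 to 0.119). ACAT2, PMVK and IDI1 were not called, with log2 fold-changes of −0.02, 0.21 and 0.13. The 5 had a median of −0.02. Whether the late steps moved differently from the early ones was not tested.

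**Figure D3:**
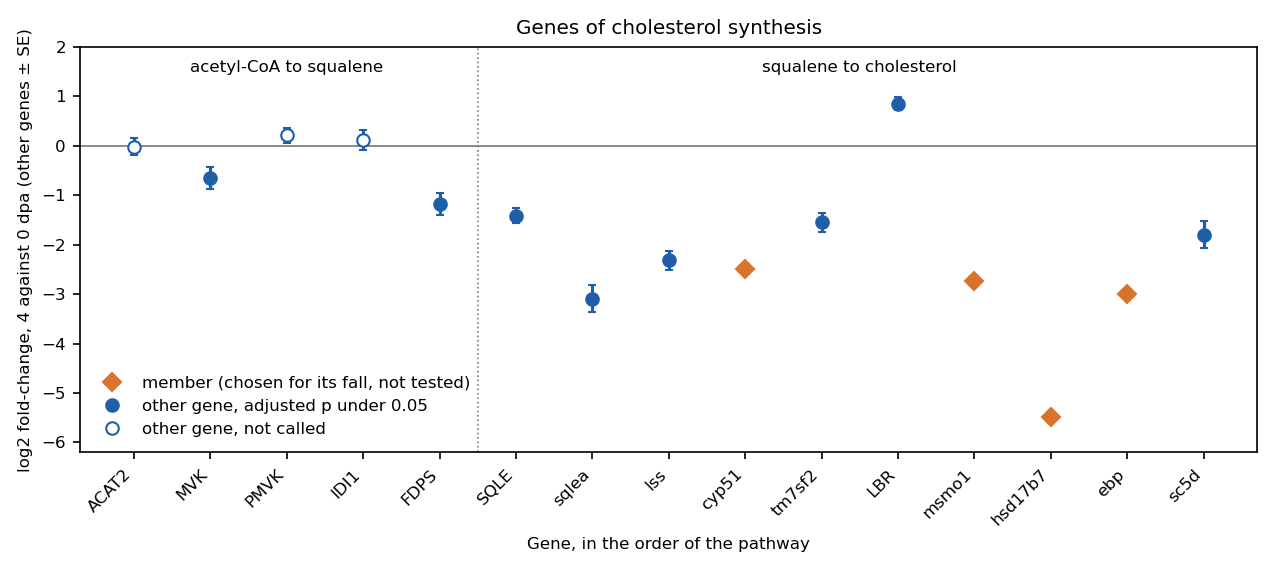
Log2 fold-change at 4 dpa against 0 dpa of the genes of cholesterol synthesis in pathway order, with members as orange diamonds and other genes as blue circles (± SE from limma, 3 libraries per day), filled where the adjusted p was under 0.05. After squalene, the 4 members lie below 0 by the rule. Of the 6 other genes there, 5 lie below 0, from −1.41 to −3.09, and LBR lies above it at 0.85.

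Genes that sense or carry sterols were not members. Of 17, 9 fell and 4 rose (median −0.51). The largest falls were in tmem97, a sterol-regulated membrane protein (−2.35, SE 0.23), and ldlra, a receptor that takes up cholesterol-rich particles (−1.45, SE 0.31). The largest rises were in NPC2 (ENSDARG00000096979), which carries cholesterol out of lysosomes (1.85, SE 0.14), and abca1b, which exports it (1.36, SE 0.14). Those 4 had limma adjusted p values of 6.00e-05, 0.0039, 1.83e-05 and 7.17e-05. The NPC2 entry that rose was the scarcer one, with 2.75, 2.64 and 3.31 CPM, then 12.1, 15.5 and 11.3 CPM. The other NPC2 entry (ENSDARG00000090912) was not called (−0.18, SE 0.11, limma adjusted p = 0.19). It had 165, 146 and 143 CPM at 0 dpa and 131, 149 and 117 CPM at 4 dpa.

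Enzymes that convert sterols formed the next role. The steroid dehydrogenase hsd3b7 (ENSDARG00000036966), which in mammals acts in bile acid synthesis, had 609, 909 and 844 CPM at 0 dpa and 62.1, 79.2 and 76.6 CPM at 4 dpa. The cytochrome cyp27a3 (ENSDARG00000057262), of a family that hydroxylates the sterol side chain, had 126, 187 and 201 CPM, then 16.1, 20.7 and 29.7 CPM. The subunit slc51a (ENSDARG00000045306) of an exporter of bile acids and steroids had 326, 341 and 524 CPM, then 41.7, 47.9 and 58.0 CPM. No 4 dpa library overlapped a 0 dpa library in any of them, and the lowest 0 dpa value was 4.24 to 7.69 times the highest 4 dpa value. The rule chose them on this contrast, so nothing is read from that gap.

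Genes for the uptake, activation and transfer of sulfate were among the members, and whether they serve sterols here was not tested. The cytosolic sulfotransferase sult2st3 (ENSDARG00000028367) had 3569, 3195 and 3873 CPM at 0 dpa and 516, 716 and 631 CPM at 4 dpa. PAPS synthase papss2a (ENSDARG00000071021) had 742, 1282 and 1387 CPM, then 98.7, 123 and 139 CPM. The sulfate transporter slc26a2 (ENSDARG00000011618) had 134, 238 and 254 CPM, then 18.0, 29.96 and 34.6 CPM. For papss2a and slc26a2, 0 dpa replicate 1 was well below the other 2 libraries, whereas sult2st3 varied little. The sulfatase sts, which removes sulfate from steroids, had 24.3, 42.6 and 37.8 CPM at 0 dpa and 3.58, 3.15 and 3.76 CPM at 4 dpa.

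Other genes of these routes were counted next to the members. Of 17 other genes for sulfate supply and sulfotransferases, 8 fell and 4 rose (median −0.59). BPNT1, which clears the by-product of sulfation, fell by 1.9 (SE 0.19, limma adjusted p = 6.11e-05) from 165, 167 and 272 CPM to 48.4, 48.7 and 55.8 CPM, and sult1st4 fell by 2.46 (SE 0.16, limma adjusted p = 6.38e-06). By contrast papss1, another PAPS synthase, rose by 1.56 (SE 0.16, limma adjusted p = 8.01e-05) from 4.76, 5.99 and 6.73 CPM to 18.5, 15.7 and 22.3 CPM. PAPSS2 (ENSDARG00000056600), the other copy of papss2a, was not called, with 84.2, 103 and 92.0 CPM at 0 dpa and 84.8, 84.7 and 98.9 CPM at 4 dpa.

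Of 22 other steroid and bile acid genes, 10 fell, 2 rose and 10 were not called (median −0.30). CYP7A1 (ENSDARG00000069018), in mammals the first and limiting enzyme of bile acid synthesis, had 18.8, 30.4 and 49.1 CPM at 0 dpa and 1.96, 4.13 and 6.78 CPM at 4 dpa, a log2 change of −2.66 (SE 0.40, limma adjusted p = 0.000618). CYP8B1, a later hydroxylase of the same route, fell by 2.07 (SE 0.52, limma adjusted p = 0.00853), and the steroid reductase SRD5A2 by 1.6 (SE 0.30, limma adjusted p = 0.0018). HSD11B2, which inactivates cortisol, rose by 1.87 (SE 0.34, limma adjusted p = 0.00167) from 37.1, 92.7 and 108 CPM to 250, 294 and 244 CPM.

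Lipocalins, small carriers of lipids, included the most abundant member by read share. ptgdsb.1 (ENSDARG00000027088), named for the lipocalin-type prostaglandin D synthase, had 5630, 6932 and 6806 CPM at 0 dpa and 269, 315 and 351 CPM at 4 dpa. Its copy ptgdsb.2 (ENSDARG00000071626) had 1499, 1949 and 1851 CPM, then 33.05, 44.3 and 41.5 CPM. The order of the 0 dpa libraries was the same in both, with replicate 1 lowest. The copies are next to each other, with 0 genes between them in the RefSeq gene order of the GRCz12tu assembly. How reads that match both copies were counted is not given in the sources used here. How alike the copies are was not examined either, so the split of reads between them is uncertain.

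The retinol carrier rbp4 (ENSDARG00000077505) had 1534, 2136 and 1962 CPM at 0 dpa and 115, 154 and 126 CPM at 4 dpa. The carotenoid cleaving enzyme bco2b (ENSDARG00000041715) had 57.2, 94.4 and 97.1 CPM, then 4.32, 8.68 and 6.86 CPM. Both again had their lowest 0 dpa value in replicate 1. Neither overlapped between days, which largely follows from the rule. Of 11 other genes for retinol carriers and carotenoid cleavage, 4 fell and 6 rose. The cleavage enzyme bco2a fell by 1.74 (SE 0.12, limma adjusted p = 9.49e-06), while lratb.1, which esterifies retinol for storage, rose by 2.73 (SE 0.12, limma adjusted p = 1.08e-06) from 1.00, 1.35 and 1.22 CPM to 13.0, 14.1 and 12.8 CPM.

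Of 26 other genes for the synthesis and sensing of prostaglandins and leukotrienes, 8 fell, 6 rose and 12 were not called (median −0.08). The lipoxygenase alox12 fell by 1.79 (SE 0.18, limma adjusted p = 6.63e-05) and thromboxane synthase tbxas1 by 1.3 (SE 0.11, limma adjusted p = 3.18e-05). PTGS2 (ENSDARG00000010276), a cyclooxygenase that makes the precursor of prostaglandins, rose by 1.44 (SE 0.28, limma adjusted p = 0.00214). This entry was the scarcer one, with 6.90 CPM on average at 0 dpa and 19.8 CPM at 4 dpa. The other PTGS2 entry (ENSDARG00000004539) was not called (−0.19, SE 0.13, limma adjusted p = 0.246). It had 198 CPM on average at 0 dpa and 169 CPM at 4 dpa.

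Enzymes of amino acid and sugar use included tat, mat2ab, gyg1b and PDK2. Tyrosine aminotransferase tat (ENSDARG00000069630), the first step of tyrosine breakdown, had 69.2, 99.2 and 111 CPM at 0 dpa and 6.5, 7.18 and 8.32 CPM at 4 dpa. S-adenosylmethionine synthetase mat2ab (ENSDARG00000037121) had 186, 364 and 448 CPM, then 21.9, 27.2 and 39.5 CPM. Both were lowest in 0 dpa replicate 1 and highest in replicate 3, and mat2ab varied more than tat at 0 dpa.

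The 3 other genes of tyrosine breakdown read here fell as well. HPD fell by 1.61 (SE 0.14), HGD by 1.02 (SE 0.08) and GSTZ1 by 0.82 (SE 0.13), 3 steps after tat in that order (limma adjusted p values of 2.81e-05, 2.6e-05 and 0.000751). All 3 also fell with the other scalings tried.

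In the methionine cycle, 7 of 19 other genes fell and 4 rose (median −0.20). mat1a, another S-adenosylmethionine synthetase, fell by 2.36 (SE 0.12, limma adjusted p = 1.88e-06), and cth, which makes cysteine, rose by 2.11 (SE 0.13, limma adjusted p = 5.64e-06). In glycogen metabolism, 10 of 17 other genes fell and 1 rose (median −0.48). ppp1r3cb, a glycogen-targeting phosphatase subunit, fell by 2.79 (SE 0.17, limma adjusted p = 5.54e-06), beside the glycogenin gyg1b, the primer of glycogen, with 252, 289 and 214 CPM at 0 dpa and 35.4, 41.2 and 38.6 CPM at 4 dpa. Among 7 other genes of fructose breakdown and gluconeogenesis, 3 fell and 3 rose, with pck1 (−2.42, SE 0.30, limma adjusted p = 0.000219) and fbp1a (−1.48, SE 0.11, limma adjusted p = 1.16e-05) showing the largest falls.

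Immune members differed in which 0 dpa library was highest. The nitric oxide synthase nos2a (ENSDARG00000026925) had 2540, 692 and 799 CPM at 0 dpa and 133, 144 and 77.0 CPM at 4 dpa, so replicate 1 was the highest by far, and the fall of −3.29 became −2.70 without it. MPEG1 (ENSDARG00000078569), a pore-forming protein of macrophages, had 81.0, 22.8 and 64.1 CPM, then 1.55, 8.16 and 0.843 CPM. The MPEG1 copy ENSDARG00000055290 was not called (−0.08, SE 0.11, limma adjusted p = 0.543), with 116, 110 and 120 CPM, then 109, 123 and 93.7 CPM. The copy ENSDARG00000043093 is described further below. The perforin prf1.6 (ENSDARG00000024522), used by killer lymphocytes, had 84.7, 54.6 and 42.6 CPM, then 9.93, 4.39 and 5.67 CPM. The summed CPM of the 7 immune members was 3586 in 0 dpa replicate 1, 1803 and 2175 in the other two, and 227 to 296 at 4 dpa, and most of the difference between the 0 dpa sums lay in nos2a.

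The complement component c4b (ENSDARG00000038424) had 85.1, 61.8 and 89.9 CPM at 0 dpa and 2.25, 5.42 and 4.06 CPM at 4 dpa. Of 14 other complement genes, 7 fell and 3 rose (median −0.23). The largest fall was in cfd, which starts the alternative pathway, from 1045, 881 and 1013 CPM to 239, 222 and 305 CPM (−1.93, SE 0.13, limma adjusted p = 1.06e-05).

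CC chemokines, secreted guides of immune cells, gave 3 members. ccl25b (ENSDARG00000070873) had 418, 570 and 671 CPM at 0 dpa and 77.1, 81.3 and 96.2 CPM at 4 dpa. ccl27b (ENSDARG00000079713) had 300, 314 and 365 CPM, then 37.4, 44.3 and 36.7 CPM, and ccl19b (ENSDARG00000039351) had 77.0, 87.4 and 143 CPM, then 9.45, 8.58 and 6.48 CPM. Of 23 other CC chemokines and receptors, 14 fell and 6 rose (median −0.88). The ligand ccl20b fell by 2.5 (SE 0.25, limma adjusted p = 7.32e-05) and ccr10, in mammals the receptor of CCL27, by 2.41 (SE 0.31, limma adjusted p = 0.000251) from 35.2, 37.0 and 16.8 CPM to 4.98, 5.63 and 2.95 CPM, while the receptor ccr12b.2 rose by 2.01 (SE 0.16, limma adjusted p = 2.26e-05).

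Nitric oxide synthesis draws on arginine and the cofactor tetrahydrobiopterin. Of 12 other genes of that route, 10 fell and 1 rose (median −0.71). The arginine transporter slc7a2 fell by 2.03 (SE 0.20, limma adjusted p = 6.77e-05). The cofactor enzyme spra fell by 1.64 (SE 0.12, limma adjusted p = 1.67e-05). QDPR, which regenerates the cofactor, had entries called in opposite directions. ENSDARG00000040190 rose by 1.34 (SE 0.20, limma adjusted p = 0.000614) from 5.60, 8.82 and 9.65 CPM to 17.2, 25.1 and 21.8 CPM. ENSDARG00000037378 fell by 0.36 (SE 0.10, limma adjusted p = 0.0142) from 11.2, 11.7 and 12.5 CPM to 9.19, 8.83 and 8.59 CPM. With total-read scaling the median of all genes moved to 0.24, a shift of similar size to that fall.

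The largest fall of all members was in prg4a (ENSDARG00000010482), which encodes lubricin, a lubricating proteoglycan of surfaces. It had 535, 576 and 530 CPM at 0 dpa and 2.22, 5.53 and 2.15 CPM at 4 dpa, a ratio of the means of 166. The lowest 0 dpa value was 95.8 times the highest 4 dpa value. fgfbp2a (ENSDARG00000039964), which binds fibroblast growth factors, had 567, 715 and 734 CPM at 0 dpa and 48.3, 70.3 and 52.7 CPM at 4 dpa.

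Other proteoglycans mostly went the other way. Of 20 other small leucine-rich and cartilage proteoglycans and lubricin, 16 rose and 3 fell (median 1.35). ogn rose by 4.69 (SE 0.11, limma adjusted p = 6.83e-08) from 11.4, 14.5 and 14.3 CPM to 357, 391 and 345 CPM, and aspn by 3.38 (SE 0.12, limma adjusted p = 4.47e-07). prg4b, the other lubricin copy, fell by 2.87 (SE 0.24, limma adjusted p = 2.43e-05) from 13.96, 27.5 and 22.4 CPM to 1.51, 1.81 and 2.49 CPM. Both lubricin copies were therefore lower at 4 dpa, and the median of the list was higher.

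Among keratins, which form the filaments of epidermal cells, krt1-19e (ENSDARG00000090268) had 1477, 1425 and 1343 CPM at 0 dpa and 64.4, 116 and 100.2 CPM at 4 dpa, and krt99 had 21.4, 41.2 and 48.9 CPM, then 3.58, 5.32 and 4.52 CPM. syne2b, a linker of nucleus and cytoskeleton, had 106, 117 and 118 CPM, then 18.6, 18.1 and 20.6 CPM. krt1-19e and syne2b were steady between 0 dpa libraries, in contrast to krt99.

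The membrane proteins were the efflux pump abcb5, the gap junction protein gjc4a.2 and the nucleotide-cleaving enzyme entpd8. abcb5 (ENSDARG00000021787) had 627, 879 and 817 CPM at 0 dpa and 108, 148 and 126 CPM at 4 dpa. entpd8 (ENSDARG00000005565) had 189, 429 and 508 CPM, then 48.0, 51.3 and 59.6 CPM, with replicate 1 far below the others at 0 dpa. Of 18 other ABC transporters of the same families, 5 fell and 6 rose (median 0.16).

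The Notch ligand dlc (ENSDARG00000002336) had 33.7, 36.4 and 34.6 CPM at 0 dpa and 4.95, 5.32 and 4.33 CPM at 4 dpa, with little spread on either day. Of 22 other Notch pathway genes, 8 fell and 4 rose (median −0.05), and the target her6 rose by 2.22 (SE 0.11, limma adjusted p = 2.31e-06) and the modifier lfng by 2.12 (SE 0.11, limma adjusted p = 2.52e-06). The chromatin remodeller smarca1 had 44.3, 52.8 and 48.5 CPM at 0 dpa and 6.31, 6.82 and 5.71 CPM at 4 dpa. The kinase pim2, the calcium-binding pvalb8, the haem-binding soul5 and sxph, named for a toxin-binding transferrin relative of frogs, kept 9.38 to 15.1% of their 0 dpa mean. plekhs1.3, a protein with a lipid-binding domain, had 142, 18.6 and 29.3 CPM at 0 dpa and 5.87, 8.37 and 6.25 CPM at 4 dpa, and without 0 dpa replicate 1 its fall of −2.5 shrank to −1.65.

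The 23 members with clone-based or no names had a median fall of −3.14 and took 10775 ± 1014 (SD, n = 3) of the summed CPM at 0 dpa, beside 10183 ± 1282 (SD, n = 3) for the 4 members with lipocalins and carotenoid cleavage. zgc:136930 (ENSDARG00000055192) had 2199, 2459 and 1976 CPM at 0 dpa and 23.9, 52.8 and 45.7 CPM at 4 dpa, and si:dkey-183i3.5 (ENSDARG00000056248) had 3645, 3743 and 2926 CPM, then 140, 211 and 175 CPM. wu:fk65c09 had 106, 166 and 144 CPM, then 3.18, 1.39 and 3.91 CPM, ENSDARG00000095866 had 69.0, 144 and 80.9 CPM, then 3.32, 0.672 and 3.72 CPM, and si:ch211-76l23.4 had 1086, 1519 and 1206 CPM, then 47.5, 87.2 and 57.9 CPM. These 5 were among the 10 largest falls, and none overlapped between days, which largely follows from the rule.

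A member of this kind had an outlying library, 4 dpa replicate 2. si:dkeyp-1h4.8 (ENSDARG00000092833) had 404, 508 and 263 CPM at 0 dpa and 0.295, 284 and 0.192 CPM at 4 dpa. Its mean fall was −5.64, and without 4 dpa replicate 2 it was −8.25. It met the rule whichever library was left out, with a smallest fall of −4.30 without 4 dpa replicate 3. By the ratio of mean CPM, however, it kept 24.2% and would not have been a member. No other member had a 4 dpa library within the range of the 0 dpa libraries.

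Many members have other copies in the zebrafish genome, which the rule did not choose. For 16 members, 21 other genes carried the same name apart from the copy suffix. Of these, 12 fell, 1 rose and 8 were not called, with a median log2 fold-change of −1.17, and each moved less than the member it was matched to. The falls included syne2a (−1.73, SE 0.11, limma adjusted p = 6.43e-06), c4 (−1.56, SE 0.16, limma adjusted p = 6.72e-05), ccl27a (−1.15, SE 0.12, limma adjusted p = 7.32e-05) and prf1.1 (−1.17, SE 0.12, limma adjusted p = 8.17e-05), besides prg4b and bco2a above. The members had been chosen for large falls, so that their copies moved less is a product of the rule and not a result.

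Smaller falls were seen in fgfbp2b (−0.57, SE 0.16, limma adjusted p = 0.0129) and GYG1 (−0.37, SE 0.10, limma adjusted p = 0.0102), both lost with total-read scaling (limma adjusted p 0.0765 and 0.446). PDK2 (ENSDARG00000020876) and ccl19a.1 were near the threshold (limma adjusted p = 0.0494 and 0.0488). Among the copies not called, MAT2A had 185, 224 and 213 CPM at 0 dpa and 259, 201 and 297 CPM at 4 dpa, beside 332.5 CPM on average at 0 dpa and 29.5 CPM at 4 dpa for mat2ab. MAT2A was called higher with total-read scaling (0.57, limma adjusted p = 0.00788) and without 4 dpa replicate 2 (0.44, limma adjusted p = 0.0131). The gap junction copy gjc4b was the only one called higher in the fit of all libraries (0.72, SE 0.25, limma adjusted p = 0.0325), and it was not called in 4 of the 6 fits that left out a library.

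Some copies also stood high in 0 dpa replicate 1, as nos2a and plekhs1.3 did. ccl19a.2 had 237, 31.3 and 65.5 CPM at 0 dpa, MPEG1 (ENSDARG00000043093) had 220, 55.3 and 62.3 CPM, and plekhs1.1 had 167, 10.53 and 12.4 CPM. None of the 3 was called in the fit of all libraries, with log2 fold-changes of −1.36, −1.2 and −2.22 (limma adjusted p = 0.0955, 0.0559 and 0.0617). MPEG1 (ENSDARG00000043093) was called lower without 0 dpa replicate 1, 2 or 3, at −0.56, −1.56 and −1.47 (limma adjusted p = 0.0327, 0.0237 and 0.0492). So was plekhs1.1, at −0.96, −2.90 and −2.79 (limma adjusted p = 0.0132, 0.0261 and 0.047), and ccl19a.2 without replicate 2 only, at −2.02 (limma adjusted p = 0.0124). The fits without a 4 dpa library called none of the 3. plekhs1.2, with 72.4, 29.0 and 33.0 CPM at 0 dpa, and plekhs1.4, with 20.8, 9.79 and 9.90 CPM, were also highest in 0 dpa replicate 1. Both were called lower in the fit of all libraries, at −1.54 (SE 0.33, limma adjusted p = 0.00412) and −1.58 (SE 0.27, limma adjusted p = 0.00127). The copy prf1.5 was not called (0.19, SE 0.16, limma adjusted p = 0.334). The NOS2 copy (ENSDARG00000031976) was low on both days, with 0.740, 1.3 and 1.9 CPM at 0 dpa and 0.849, 1.45 and 1.03 CPM at 4 dpa.

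**Figure D4:**
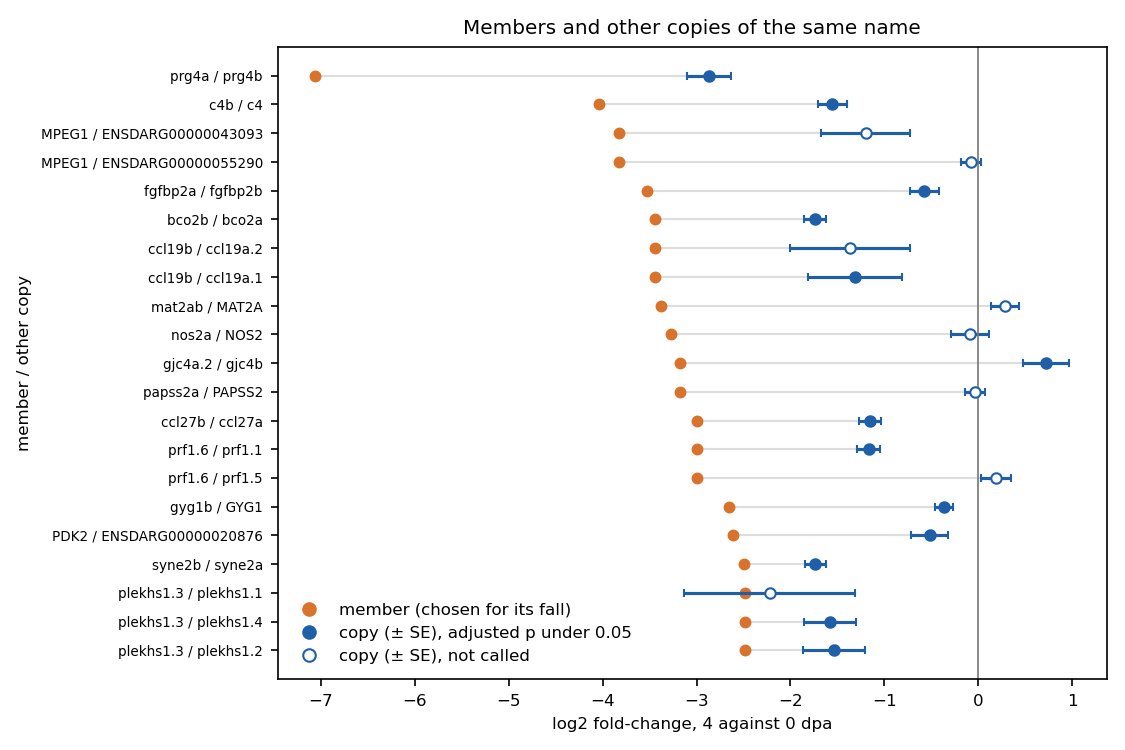
Log2 fold-change at 4 dpa against 0 dpa of 16 members (orange) and of the 21 other copies that share their name (blue, ± SE from limma over 3 libraries per day, filled where the adjusted p was under 0.05). Copies run from −2.87 for prg4b to 0.72 for gjc4b, and 12 of them are filled and below 0.

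Markers of fin cell types were read beside the members, to show what else moved in the same libraries. All 8 goblet and club cell genes fell (median −1.36), with muc5.1 (−3.03, SE 0.16, limma adjusted p = 2.46e-06) and muc5.2 (−2.17, SE 0.18, limma adjusted p = 2.35e-05), gel-forming mucins, leading. The summed CPM of the 8 was 9646, 10774 and 11065 at 0 dpa and 4702, 6047 and 5140 at 4 dpa. Of 22 lymphocyte genes besides prf1.6, 18 fell and 1 rose (median −0.96), and their sum was 385 to 515 CPM at 0 dpa and 177 to 223 CPM at 4 dpa.

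Of 11 genes of the superficial and intermediate epidermis, 8 fell and 1 rose (median −0.66), and their sum was 74484 to 85584 CPM at 0 dpa and 38658 to 44612 CPM at 4 dpa. For 11 basal epidermis genes, 3 fell and 5 rose (median 0.22). The sum of these basal genes was 6137 to 8453 CPM at 0 dpa and 11396.5 to 13568 CPM at 4 dpa, a mean of 179% of that at 0 dpa. Such a sum rests on the most abundant genes. With 3 of the 11 lower and 3 not called, it does not show a rise of the basal list as a whole. Of 16 genes of axons and Schwann cells, 10 fell and 1 rose (median −0.81), led by the myelin genes mbpa (−3.90, SE 0.13, limma adjusted p = 3.40e-07) and plp1b (−3.22, SE 0.14, limma adjusted p = 1.05e-06). Of 24 neutrophil and macrophage genes besides MPEG1, 7 fell, 4 rose and 13 were not called (median −0.21). The mean summed CPM at 4 dpa was 50.5% of that at 0 dpa for goblet and club cells and 43.8% for lymphocytes. It was 52.1% for the superficial epidermis, 57.9% for axons and Schwann cells and 37.5% for neutrophils and macrophages. For the members together it was 8.69%, which follows from the rule, so that they lie below these lists is not a result. For neutrophils and macrophages the sum was mostly that of cd74a and cd74b, named here after their values were seen, which fell by 1.62 each (limma adjusted p = 5.34e-06 and 1.22e-05), while 13 of the 24 genes were not called. The part of cell composition in the members' falls was not tested.

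Lists tied to the growing tissue moved the other way. Of 26 cell division genes, 24 rose and 0 fell (median 1.61). Of 13 osteoblast genes, 8 rose and 3 fell (median 1.7), and of 21 genes of fibroblasts and pericytes, 13 rose and 6 fell (median 1.34), led by and2 (9.66, SE 0.15, limma adjusted p = 1.3e-08) and and1 (9.02, SE 0.15, limma adjusted p = 1.3e-08), which encode fibre proteins of the fin fold. The remaining marker lists, for ionocytes, pigment cells, vessels, osteoclasts, neuromasts, red blood cells and muscle, had medians of −0.69 to 0.48.

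**Figure D5:**
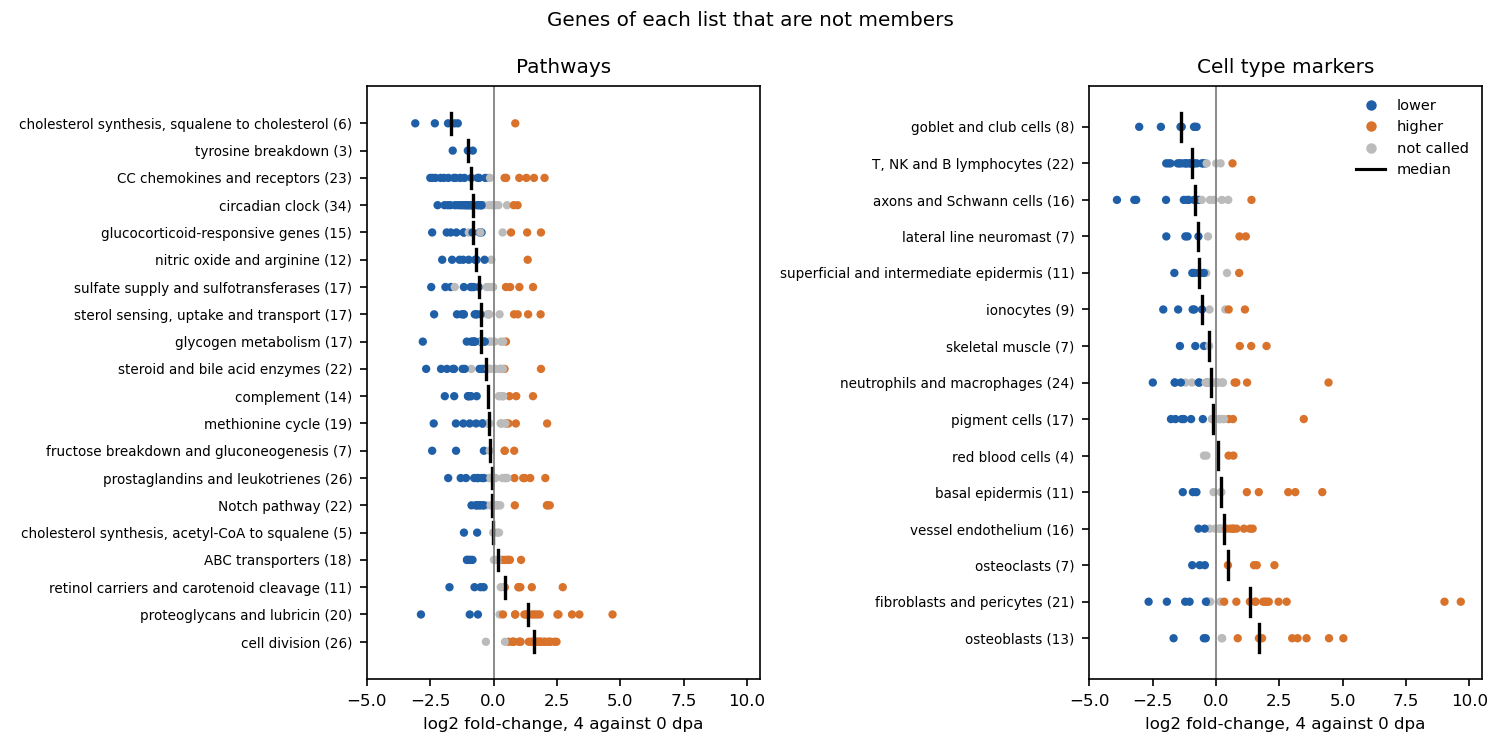
Log2 fold-change at 4 dpa against 0 dpa of the genes of each list that are not members (points, blue where lower and orange where higher at an adjusted p under 0.05, grey otherwise) with the list's median as a bar and its number of genes in brackets, for pathways (left) and cell type markers (right). Late cholesterol synthesis (−1.67), goblet and club cells (−1.36) and tyrosine breakdown (−1.02) have the lowest medians, and osteoblasts (1.7) and cell division (1.61) the highest.

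Since tat is a textbook target of the glucocorticoid receptor, other genes that respond to cortisol were read beside it. Of 15, 9 fell and 3 rose (median −0.83), with pck1 the largest fall after tat. The largest rise among the 15 was 1.87, the value given for HSD11B2 above. Their sum was 2481, 5885 and 4891 CPM at 0 dpa and 2077, 2221 and 2182 CPM at 4 dpa, so 0 dpa replicate 1 was nearer to the 4 dpa libraries than to its own group. FKBP5, a chaperone induced by cortisol, had 1027, 2781 and 2100 CPM at 0 dpa and 715, 836 and 821 CPM at 4 dpa (−1.18, SE 0.31, limma adjusted p = 0.0101). In 0 dpa replicate 1, 7 of the 11 roles of members also had their lowest 0 dpa sum. As a percent of the 0 dpa mean, the sums were 65.1% (sulfate supply), 68.3% (cholesterol synthesis), 71.7% (membrane proteins), 74.1% (amino acid and sugar enzymes), 85.6% (lipocalins and carotenoid cleavage), 90.4% (matrix and growth factor binding) and 94.3% (sterol conversion, sulfation and export). The last was hardly below replicate 2, at 94.7%. That replicate 1 was also the lowest for 46.7% of the other genes at the minimum level. The roles were drawn up with the values known, and the amino acid and sugar enzymes include tat. A link between the lists was not tested.

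Genes of the circadian clock also differed. Of 34, 25 fell and 2 rose (median −0.83), with bhlhe41 (−2.21, SE 0.29, limma adjusted p = 0.000287) and cry5 (−1.94, SE 0.10, limma adjusted p = 1.94e-06) falling most. The time of day at which fins were collected is not given in the sources used here, so a difference in time between the groups cannot be told apart from the 4 days of regeneration.

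The size of these differences depends on what is held constant between days. The authors' adjusted library sizes were 0.855 to 0.908 of the reads at 0 dpa and 1.08 to 1.1 of them at 4 dpa. Scaled to total reads instead, the median log2 fold-change of all genes moved from −0.00 to 0.24, with 3595 genes lower and 7518 higher in place of 5271 and 5256, and 40 genes met the rule. List medians nearer to 0 than that shift carry no direction. These are early cholesterol synthesis, methionine, fructose, complement, prostaglandins, Notch, ABC transporters, basal epidermis, myeloid cells, pigment cells and red blood cells. Single genes could move further than the median of all genes, as MAT2A did from 0.29 to 0.57. The medians of skeletal muscle (−0.27) and of steroid and bile acid genes (−0.30) lay only just beyond the shift, so their direction is uncertain too.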

How the data were processed

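The deposited mRNA values are log2 values that the authors made from CPM (read counts scaled to library sizes that they adjusted) with 1 added. They cover 16951 Ensembl genes in 6 libraries. In each library 100.0% of the values gave whole reads within a tolerance of 0.02. Per the labels the submitters' processing notes name edgeR, RSEM, Trimmomatic and the Zv9 build. Which tool aligned or counted the zebrafish mRNA reads is not given in the sources used here. The deposited small RNA table was not used.

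Names came from a table of gene symbols, which matched 13664 genes. The study's own symbols were used where that table had none, and for some genes where it gave a name in capitals. Gene lists were matched on the table alone. Results for a few genes, 2 of them members, are not reported here, and these genes were left out of list and role counts. Each library was centred on its trimmed mean log ratio to the mean library (30% of ratios and 5% of levels trimmed) and the values were fitted with limma 3.58.1 (lmFit, eBayes with a mean trend) in R 4.3.3, with Benjamini-Hochberg adjustment over all 16951 genes and a threshold of 0.05. The fit was tested on simulated data in which few genes changed, as many up as down. That test does not cover data in which most genes differ between days. It used no low-value filter, and fold-changes on a scale with 1 added understate changes of low genes. CPM intervals from counts cover counting error only and are not given.

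The members and the gene lists were chosen with earlier results of these data known. Named were members with gene names and the 10 largest falls, genes at the thresholds, every copy of a named member, and in each list other genes past the threshold by size, at most 8 where the list held a member and otherwise 2 each way. Names in capitals are human-style symbols of zebrafish genes. Alternatives covered scaling, pseudocount, filter, test, thresholds, replicate block and leaving out each library.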

Additional observations from a re-analysis of the deposited data

How the results depend on the processing

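With the rule on total reads 40 genes were members, with a minimum fall of 2 there were 141 and with 3 there were 36. The other thresholds, scalings and pseudocounts gave 49 to 81 and leaving out each library 63 to 76. When a 2-fold change was also required, 1845 genes were lower and 1840 higher, and of the list genes 118 were lower and 93 higher in place of 231 and 152. The copies called higher numbered 1, with total reads 2 and with the 2-fold minimum 0, and 0 to 2 when a library was left out (0 without 0 dpa replicate 2 or 3 or 4 dpa replicate 1 or 3, and 2 without 4 dpa replicate 2). With limma-voom on the recovered reads 5425 genes were lower and 5083 higher. 

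Of 200 named genes, 171 kept their direction and side of the threshold in all alternatives that gave a value. Only 3 copies that were not called reversed, each near 0. With total reads NOS2 (ENSDARG00000031976) was at 0.052, MPEG1 (ENSDARG00000055290) at 0.20 and PAPSS2 (ENSDARG00000056600) at 0.25. When each library was left out, they ran from −0.27 to 0.088, from −0.17 to 0.017 and from −0.11 to 0.037, above 0 without 0 dpa replicate 3 for NOS2, without 4 dpa replicate 3 for MPEG1, and without 0 dpa replicate 2 or 4 dpa replicate 1 or 2 for PAPSS2. The cause was not tested beyond the shift of all genes under total reads.

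Whether libraries with the same replicate number came from the same fish is not given in the sources used here. Their deviations correlated at 0.17, −0.01 and 0.15 over 4305 genes, which does not settle it. With the replicate block 5292 genes were lower and 5193 higher, with 230 and 154 among list genes and 14 and 1 among the copies, where MPEG1 (ENSDARG00000043093) and plekhs1.1 were called (limma adjusted p = 0.0413 and 0.0163). The planned search of promoters and proteins was not run, since no sequences were used here.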
